A study of Mus musculus with 2 samples.

Results

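Of the 55536 genes in the deposited gene table, 67 were replication-dependent histone genes, chosen as every gene whose symbol begins with Hist1h, Hist2h, Hist3h or Hist4h and that has a protein-coding transcript. They were sorted by the class written in the name into 6 H1, 18 H2A, 18 H2B, 12 H3 and 13 H4 genes. By cluster, 54 lie in Hist1 on chromosome 13, 10 in Hist2 on chromosome 3, 2 in Hist3 on chromosome 11 and 1 in Hist4 on chromosome 6. The loci Hist1h2aj, Hist1h2al and Hist3h2bb-ps carry such names but are annotated as pseudogenes, so they were left out.

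H2A, H2B, H3 and H4 are the core histones that wrap DNA into nucleosomes, and H1 is the linker histone that binds where DNA enters and leaves the nucleosome. The genes of this set are known to be transcribed mainly in S phase, when new DNA is packaged, and most have no introns. Their mRNAs are known to end, not in a poly(A) tail, but just after a stem-loop that the stem-loop binding protein SLBP holds, while some are also known to be made in a polyadenylated form in differentiating cells. During red cell maturation chromatin is condensed before the nucleus is expelled.

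RNA selected for poly(A) was sequenced from the mouse line G1E-ER4, erythroid cells that descend from Gata1-null cells and carry a GATA1 fusion protein which estradiol switches on. The only group was G1E-ER4 after 24 h in 10 nM 17beta-estradiol, with 2 libraries that the labels number as biological replicates and that share 1 biosample record. The labels do not say whether these were separate cultures, so their spread may be technical, and with no untreated or parental sample every value below is a level of RNA that came through poly(A) selection and no p-value is given. Estimated (expected) counts summed to 71485617 in replicate 1 and 14121747 in replicate 2, the first being 5.06 times the second, and 3 counts came to 0.0420 and 0.212 CPM (counts scaled to library size). The level of a gene is its TPM, an abundance corrected for transcript length and scaled to a fixed total per library. All 6 erythroid markers examined were detected and none of 6 markers of other lineages was, with Pf4 and Cpa3 at 0 counts in both libraries and the 6 together at 0.07 and 0.17 TPM.

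The stem-loop that defines these mRNAs was searched on the sense strand of each annotated transcript as GG, 2 bases of any kind, CTTTT, 1 base of any kind, AG, 2 bases of any kind and CC, which makes 16 bases. It was present in the transcripts of 44 of the 67 genes, against 0.355% of 21951 protein-coding genes with a sequence, and lay within the last 100 bases in 22, against 0.105%. The lines below give 1 or more genes for each of the 6 stem-loop variants, taken from GENCODE M21 on mm10, with the stem-loop in capitals and 14 bases of transcript before it in lower case. They are shown because H4 genes differ from the other classes in the stem and because of the bases before it in the highest gene.
Hist1h2ap, chr13:21833029-21833058, minus strand: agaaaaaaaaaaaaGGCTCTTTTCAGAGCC
Hist1h2ao, chr13:21810884-21810913, plus strand: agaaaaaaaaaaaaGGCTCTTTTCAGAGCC
Hist1h2ag, chr13:22042483-22042512, minus strand: tgatcgccaacaaaGGCTCTTTTCAGAGCC
Hist2h2ac, chr3:96220418-96220447, minus strand: cacgaatccaaaaaGGCTCTTTTTAGAGCC
Hist1h1c, chr13:23739498-23739527, plus strand: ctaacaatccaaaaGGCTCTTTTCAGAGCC
Hist1h2bg, chr13:23571829-23571858, plus strand: actcctaacccaaaGGCTCTTTTCAGAGCC
Hist1h2bk, chr13:22036286-22036315, plus strand: cgtctagcaccaaaGGCTCTTTTAAGAGCC
Hist2h3c2, chr3:96238485-96238514, minus strand: ccattccccacaaaGGCTCTTTTCAGAGCC
Hist1h3e, chr13:23561903-23561932, minus strand: acgtaaaccaaaacGGCTCTTTTAAGAGCC
Hist1h4f, chr13:23551291-23551320, minus strand: gcttctttctcaaaGGCCCTTTTCAGGGCC
Hist1h4i, chr13:22040966-22040995, minus strand: caatgctacttaaaGGCCCTTTTTAGGGCC
Hist1h4b, chr13:23757352-23757381, plus strand: taactgttacaaaaGGTCCTTTTCAGGACC
The variant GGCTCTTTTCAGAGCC was found in 26 genes of the classes H1, H2A, H2B and H3. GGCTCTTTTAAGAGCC was found in 6 genes of H1, H2B and H3, and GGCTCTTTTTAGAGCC in Hist2h2ac alone. None of the 11 H4 genes with a stem-loop shared a variant with another class: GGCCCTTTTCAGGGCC was in 7, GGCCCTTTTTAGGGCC in 2 and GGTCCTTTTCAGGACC in 2. In Hist1h2ap and Hist1h2ao, both among the 4 highest genes of the set, a run of 12 A stands directly before the stem-loop. These 2 were the only ones of the 67 genes with a run of 10 or more A in the last 100 bases, against 5.84% of protein-coding genes. Elsewhere in their transcripts Hist1h2ac has a run of 15 A and Hist1h2be one of 11 A, and both were low, at means of 2.16 and 1.63 TPM. The run was singled out after the levels were known.

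Histone RNA was present in both libraries and was dominated by a few H2A genes. In bulk libraries such as these, fewer cells with an mRNA and less of it per cell cannot be told apart. With detection set at 1 TPM in each replicate, 52 of the 67 genes, or 77.6%, were detected, against 33.1% of 22028 protein-coding genes by the same rule. The detected genes were 3 of 6 H1, 13 of 18 H2A, 13 of 18 H2B, 11 of 12 H3 and 12 of 13 H4 genes. The 67 genes together held 3.78% of all TPM in replicate 1 and 4.24% in replicate 2, with a mean of 4.01% ± 0.324 (SD, n = 2). Without correction for length they held 1.21% of the expected counts in replicate 1 (95% Wilson interval 1.206% to 1.211%) and 1.12% in replicate 2 (1.111% to 1.121%), intervals that cover counting error only. H2A genes made up 98.1% and 95.8% of the summed TPM of the set, or 97.0% ± 1.61 (SD, n = 2).

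By mean TPM of the 2 replicates, 4 genes were at 1000 or more, 5 lay between 100 and 1000, 32 between 10 and 100, 16 between 1 and 10, and 10 below 1. All 4 genes of the highest band were H2A genes, and the next 5 were 3 H2A genes, the H3 gene Hist1h3h and the H4 gene Hist1h4k. Hist1h2aa, Hist1h2ba and Hist2h3c1 had 0 counts in both libraries. A further 9 genes were above 0 in replicate 1 and listed at 0 in replicate 2, the shallower library, and none the other way round. Their expected counts in replicate 1 ran from 1 for Hist1h1t to 1291 for Hist3h2a, and the part of depth in these zeros was not tested. Over the 52 detected genes the 2 replicates had a Spearman correlation of 0.777 and a Pearson correlation of 0.894 on log2(TPM + 1), a description across genes of 1 pair of libraries.

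**Figure D1:**
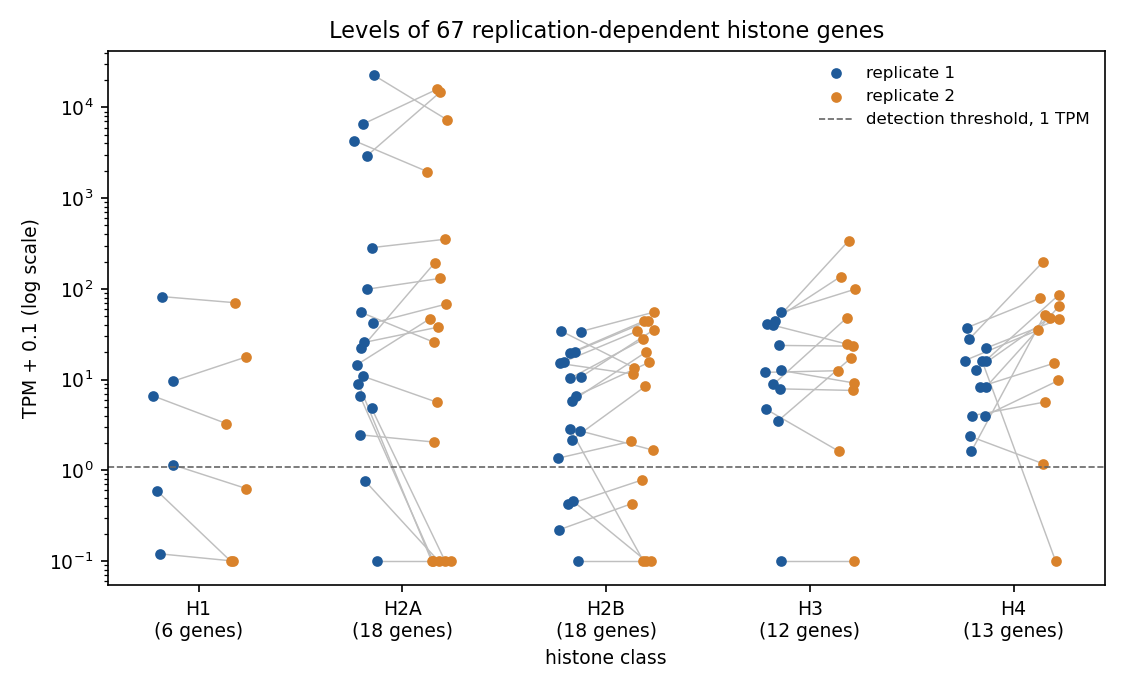
TPM + 0.1 on a log axis for each of the 67 genes by class, with replicate 1 in blue, replicate 2 in orange, a grey line joining the 2 values of a gene and a dashed line at the detection threshold of 1 TPM. The 4 highest H2A genes stand between 1959 and 22719 TPM, and no gene of another class passes 340 TPM.

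H2A joins H2B as a dimer on either side of the H3-H4 tetramer. Its 4 highest genes were Hist1h2ap, Hist1h2ah, Hist1h2af and Hist1h2ao, at ranks 8, 9, 11 and 29 of all protein-coding genes by mean TPM. Hist1h2ap, at chr13:21833026-21833507 on the minus strand, was at 22719 TPM in replicate 1 and at 7318 TPM in replicate 2. The authors' intervals for the posterior estimate were 22261 to 22594 TPM and 6665 to 7013 TPM, so they lie far apart. Its share of the summed TPM of the set was 60.1% in replicate 1 and 17.3% in replicate 2, with a mean of 38.7% ± 30.3 (SD, n = 2).

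Hist1h2ah, at chr13:22035164-22035568 on the minus strand, was higher in replicate 2, with 6576 TPM in replicate 1 and 15770 TPM in replicate 2. Hist1h2af, at chr13:23533906-23534304 on the plus strand, was at 2919 TPM in replicate 1 and at 14717 TPM in replicate 2. Hist1h2ao, at chr13:21810465-21810944 on the plus strand, was at 4306 TPM in replicate 1 and at 1959 TPM in replicate 2. The order of the 4 genes thus differed between the libraries: Hist1h2ap had rank 1 in replicate 1 and rank 3 in replicate 2. Their sum was much closer in the M21 gene table, at 36520 TPM in replicate 1 and at 39763 TPM in replicate 2, which is 1.09 times as much.

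The annotated ends of these genes differ. The transcripts of Hist1h2ap and Hist1h2ao reach past the stem-loop by 3 and 31 bases, as the windows printed above show, while those of Hist1h2ah and Hist1h2af are annotated to 2 and 1 bases after the stop codon and hold no stem-loop. Their last 30 bases are given here, with the stop codon in capitals, to show where the annotation ends.
Hist1h2ah, chr13:22035164-22035193, minus strand: gaccgagagccaccacaaggccaagTGAag
Hist1h2af, chr13:23534275-23534304, plus strand: agagccaccataagcccaagggaaagTAAg
Bases beyond these ends were not used here.

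The division of reads among these genes is uncertain. The 7 H2A genes at a mean of 100 TPM or more share 95.9% to 100% of their coding bases in 21 pairs, with a median of 98.0%, and Hist1h2ap and Hist1h2ao have the same coding sequence. Of the stretches of 31 bases in their transcripts, 6.64% are found in Hist1h2ap and no other gene, 8.80% in Hist1h2ah, 14.1% in Hist1h2af and 6.22% in Hist1h2ao. The median over all 67 genes was 41.5%, and 10 genes were below 10%. Outside the set, 7 loci share such stretches with the 4 genes, among them H2afx, the H2A variant phosphorylated at DNA breaks, at 432 TPM in replicate 1 and at 1955 TPM in replicate 2. The sum of Hist1h2ap and Hist1h2ao, which depends little on how reads were split between these 2, was 27025 TPM in replicate 1 and 9277 TPM in replicate 2.

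The deposited tables divide the same libraries differently. With the earlier annotation M4, Hist1h2ad was at 2585 TPM in replicate 1 and at 23117 TPM in replicate 2, whereas with M21 it was at 6.56 TPM and 0 TPM. Its transcript is 463 bases long in M4 and 572 bases in M21. In M4 Hist1h2ao was at 11403 and 3397 TPM and Hist1h2ah at 5084 and 973 TPM, so that the sum of the 4 genes was 35399 TPM in replicate 1 and 15349 TPM in replicate 2. The sum over all 18 H2A genes moved less between the annotations, with 38435 and 39516 TPM in M4 against 37096 and 40625 TPM in M21. Quantified from reads, that sum was 24144 TPM in replicate 1 and 6895 TPM in replicate 2. The sum of the 4 genes was then 23180 and 6640 TPM. In the table quantified from reads, Hist1h2ap was at 17314 and 1708 TPM, Hist1h2ah at 4643 and 3128 TPM and Hist1h2af at 1201 and 1804 TPM. There Hist1h2ao was at 22.1 TPM in replicate 1 and listed at 0 in replicate 2, although its coding sequence is that of Hist1h2ap. Hist1h2ap was above Hist1h2ah in replicate 1 and below it in replicate 2 in the M21 table and the table quantified from reads, while in M4 it was above it in both.

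**Figure D2:**
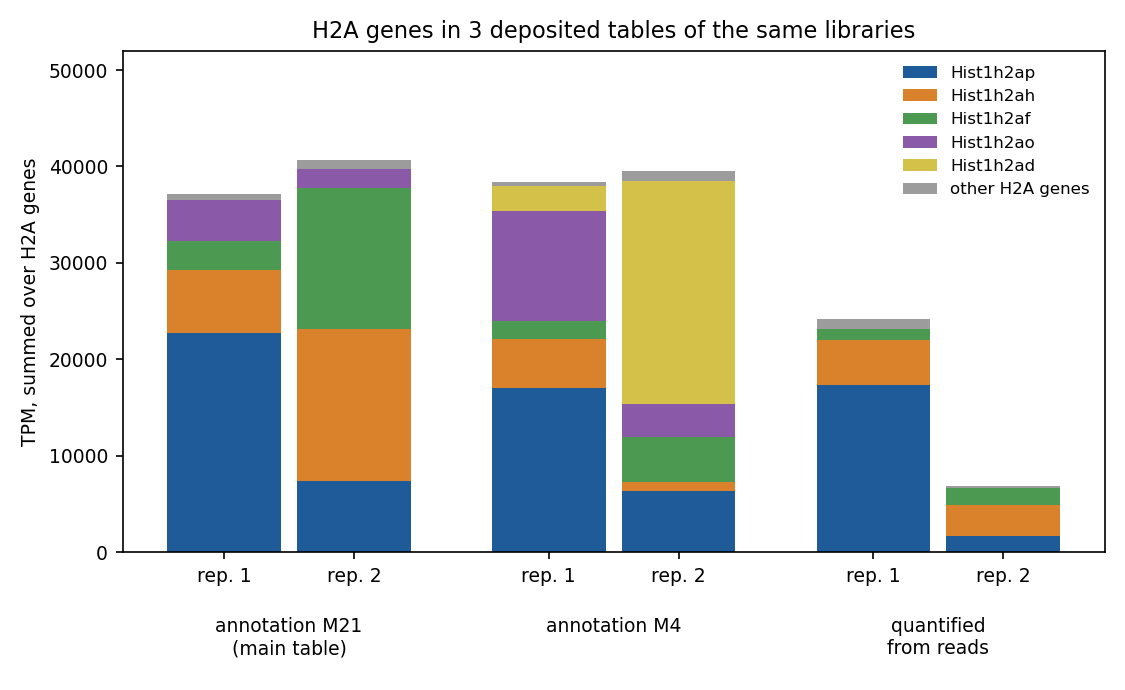
Stacked bars of TPM for H2A genes in 3 deposited tables of the same 2 libraries, with the 4 highest genes, Hist1h2ad and the sum of the other 13 H2A genes in separate colours. The total is close in both annotations of the aligned reads, Hist1h2ad takes 23117 TPM in replicate 2 with annotation M4 only, and the table quantified from reads has lower totals.

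Below the 4 highest, Hist1h2ai was at 285 TPM in replicate 1 and at 352 TPM in replicate 2, and Hist1h2ak at 98.8 and 130 TPM. Hist1h2an was at 22.0 TPM in replicate 1 and at 194 TPM in replicate 2, one of the 5 largest shifts upward in the M21 table. Hist1h2ab, Hist1h2ag and Hist1h2ae were each higher in replicate 2, at 41.8, 25.6 and 14.4 TPM in replicate 1 and 67.8, 37.7 and 46.8 TPM in replicate 2. The lowest detected H2A genes were Hist2h2ac at 10.8 and 5.55 TPM and Hist1h2ac at 2.36 and 1.95 TPM. Hist2h2aa1 and Hist2h2aa2 have the same coding sequence, and their sum was 59.8 TPM in replicate 1 and 25.6 TPM in replicate 2. Hist2h2aa1 alone was at 4.70 TPM in replicate 1 and listed at 0 in replicate 2, as were Hist3h2a, at 8.94 TPM in replicate 1, and Hist1h2ad. Hist2h2ab was below 1 TPM in both libraries. Without the 4 highest genes, H2A still held the largest share of the remaining TPM of the set, 44.9% in replicate 1 and 32.8% in replicate 2.

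H2B, the partner of H2A in the nucleosome, was spread more evenly over its genes. The 18 genes summed to 181 TPM in replicate 1 and 314 TPM in replicate 2, and the highest, Hist1h2bg, held 18.6% and 17.6% of that. Hist1h2bg was at 33.7 TPM in replicate 1 and at 55.3 TPM in replicate 2, and Hist1h2bf at 15.6 and 34.1 TPM. Hist1h2bq and Hist1h2br have the same coding sequence and equal values for their transcripts of 381 bases, 19.6 TPM in replicate 1 and 43.9 TPM in replicate 2, so only their sum of 39.8 and 88.1 TPM can be read. In M4 Hist1h2bq was at 0.06 and 0.9 TPM and Hist1h2br at 1.84 and 0 TPM, so neither was detected in that table.

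Hist1h2bc, which has a transcript of 2 exons, was at 34.2 TPM in replicate 1 and at 13.3 TPM in replicate 2, lower in replicate 2 unlike most of its class. The 6 genes Hist1h2bj, Hist1h2bb, Hist1h2bk, Hist1h2bp, Hist1h2bl and Hist1h2bm lay between 2.08 and 15.0 TPM in replicate 1 and between 8.35 and 35.5 TPM in replicate 2. The lowest detected genes were Hist1h2bh at 2.63 and 1.57 TPM and Hist1h2be at 1.26 and 1.99 TPM. Hist1h2bn was at 2.78 TPM in replicate 1 and listed at 0 in replicate 2. Hist2h2be, Hist3h2ba and Hist2h2bb were below 1 TPM in both libraries, and Hist1h2ba, a gene known from testis, had no counts.

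H3 forms the tetramer at the centre of the nucleosome together with H4 and carries many of its modified residues. The 12 H3 genes summed to 252 TPM in replicate 1 and 718 TPM in replicate 2, which is 2.85 times as much. In the table quantified from reads the H3 sum was the lower one in replicate 2, with 183 and 157 TPM. Hist1h3h, at chr13:21717659-21718069 on the plus strand, was at 44.5 TPM in replicate 1 and at 340 TPM in replicate 2, and thus held 17.6% and 47.3% of the H3 sum. Hist2h3b was at 40.4 and 136 TPM and Hist1h3i at 39.5 and 24.6 TPM. Of the stretches of 31 bases, only 5.77% in Hist1h3h and 6.82% in Hist1h3i are found in no other gene. The division of reads is thus uncertain for Hist1h3h and Hist1h3i too. Hist2h3c2 was at 55.1 TPM in replicate 1 and at 98.8 TPM in replicate 2, and Hist2h3c1, which has the same coding sequence, at 0 counts in both. The 5 genes Hist1h3e, Hist1h3g, Hist1h3b, Hist1h3c and Hist1h3f lay between 3.37 and 23.7 TPM in replicate 1 and between 9.06 and 47.8 TPM in replicate 2. The lowest detected were Hist1h3d at 7.80 and 7.49 TPM and Hist1h3a at 4.65 and 1.52 TPM.

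H4 showed the largest ratio of class sums between the libraries in the M21 table. Its 13 genes, which encode the partner of H3, summed to 176 TPM in replicate 1 and 638 TPM in replicate 2, which is 3.63 times as much. This too turned in the table quantified from reads, where the H4 sum was 102 TPM in replicate 1 and 80.6 TPM in replicate 2, and so did the H2B sum, with 122 and 52.3 TPM there. Hist1h4k, at chr13:21750194-21750505 on the minus strand, was at 27.9 TPM in replicate 1 and at 197 TPM in replicate 2. Hist1h4a was at 37.1 and 78.9 TPM, and Hist1h4f at 16.0 and 85.9 TPM. All 3 were higher in replicate 2 in the M21 table.

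Hist1h4m and Hist1h4n have the same coding sequence and differed between the libraries in opposite directions, with Hist1h4m at 8.10 TPM in replicate 1 and at 64.2 TPM in replicate 2 and Hist1h4n at 15.8 TPM in replicate 1 and listed at 0 in replicate 2. Their sum was 23.9 TPM in replicate 1 and 64.2 TPM in replicate 2. Hist4h4, the gene of a cluster of its own, had the largest ratio of the set, at 1.52 TPM in replicate 1 and at 51.6 TPM in replicate 2, and it is easy to tell from other genes, with 88.5% of its stretches of 31 bases found nowhere else. Hist1h4h, Hist1h4i and Hist1h4d were also higher in replicate 2, at 12.8, 16.1 and 22.1 TPM in replicate 1 and 48.1, 35.0 and 46.4 TPM in replicate 2. Hist1h4b was at 8.26 and 15.0 TPM and Hist1h4c at 3.89 and 9.68 TPM. The lowest detected were Hist2h4 at 3.89 and 5.56 TPM and Hist1h4j at 2.27 and 1.08 TPM.

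In H1, the linker class, 1 gene held most of the TPM. The 6 genes summed to 99.6 TPM in replicate 1 and 91.5 TPM in replicate 2, and Hist1h1c held 82.4% and 76.7% of that, at 82.0 TPM in replicate 1 and at 70.2 TPM in replicate 2, with a mean of 76.1 ± 8.39 TPM (SD, n = 2). In M4 its part was smaller, 65.6% of 131 TPM and 54.7% of 141 TPM. Hist1h1c encodes a linker histone found in many body cells. Hist1h1e was at 9.47 and 17.7 TPM and Hist1h1b at 6.51 and 3.17 TPM, and these 3 genes were the detected ones. Hist1h1d was at 1.05 TPM in replicate 1 and at 0.53 TPM in replicate 2, and whether it counts as detected depends on its annotated length. Its longest transcript has 7425 bases in M21 and 744 in M4, where it was at 12.9 and 7.57 TPM. Its 556 expected counts in replicate 1 were more than the 279 of Hist1h1b. Of the 64 genes found in both annotations, Hist1h1d and Hist1h2ad were detected in M4 only, and Hist1h2bq and Hist1h2br in M21 only. Hist1h1a and Hist1h1t, of which the second is known from testis, were at 0.49 and 0.02 TPM in replicate 1 and at 0 in replicate 2. H1 coding sequences are less alike than those of the other classes, with a median identity of 70.6% over 15 pairs, and a median of 96.3% of their stretches of 31 bases are unique.

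The distance between the stem-loop and the annotated end, and the poly(A) signal, differed between genes and classes. A poly(A) signal, AATAAA or ATTAAA, stood in the last 50 bases of a transcript in 17 of the 67 genes, against 80.7% of 21951 protein-coding genes. These were 2 H1, 2 H2A, 6 H2B, 1 H3 and 6 H4 genes. In 13 genes the transcripts held both the stem-loop and the signal, and in 19 neither. In 15 genes the transcript that reaches furthest was annotated to 3 bases or fewer after the stop codon, and 7 of these were H2A genes. By this rule Hist1h2bq and Hist1h2br, which also have longer transcripts of 2 or 3 exons, were not counted.

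A gene was counted as having the poly(A) signal if any of its transcripts held it. By that rule genes with and without it had overlapping levels, and which group had the higher median differed between the libraries. The 17 genes with the signal had medians of 5.76 and 19.9 TPM in replicates 1 and 2, with 12 detected, and the 50 without it medians of 11.3 and 17.4 TPM, with 40 detected. These medians of the 17 genes are the values of Hist1h2bp, whose transcript with the signal was at 0.42 and 0 TPM. Hist1h2bq and Hist1h2br also had nearly all of their TPM on transcripts without it. Which group was higher in replicate 2 therefore depends on this rule. Genes with the stem-loop in the last 100 bases had medians of 12.2 and 22.8 TPM (22 genes), and those with it further from the end 3.89 and 8.59 TPM (22 genes). The 23 genes with no annotated stem-loop had medians of 22.0 and 24.6 TPM. The values of the groups overlap widely, and TPM depends on the annotated length, which differs between them.

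Of the genes with the signal and a mean of 10 TPM or more, Hist1h1c is annotated for 840 bases beyond its stem-loop and Hist4h4 for 2445 bases. Hist1h4i is annotated for 330 bases beyond it, Hist1h2ae for 151 bases and Hist1h4h for 46 bases. In Hist1h4a no stem-loop was found. The other 3, Hist1h2bq, Hist1h2br and Hist1h2bp, have the signal only on a spliced transcript. In Hist1h2bq the spliced transcript with the signal was at 0.6 TPM in replicate 1 and 0 in replicate 2, and in Hist1h2bp at 0.42 and 0 TPM. The transcripts without introns held 96.9% and 99.4% of Hist1h2bq and 92.7% and 100% of Hist1h2bp, per the authors' percent column. Hist1h2br had all of its TPM on the unspliced transcript. Of the 67 genes, 62 are annotated with single-exon transcripts only.

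**Figure D3:**
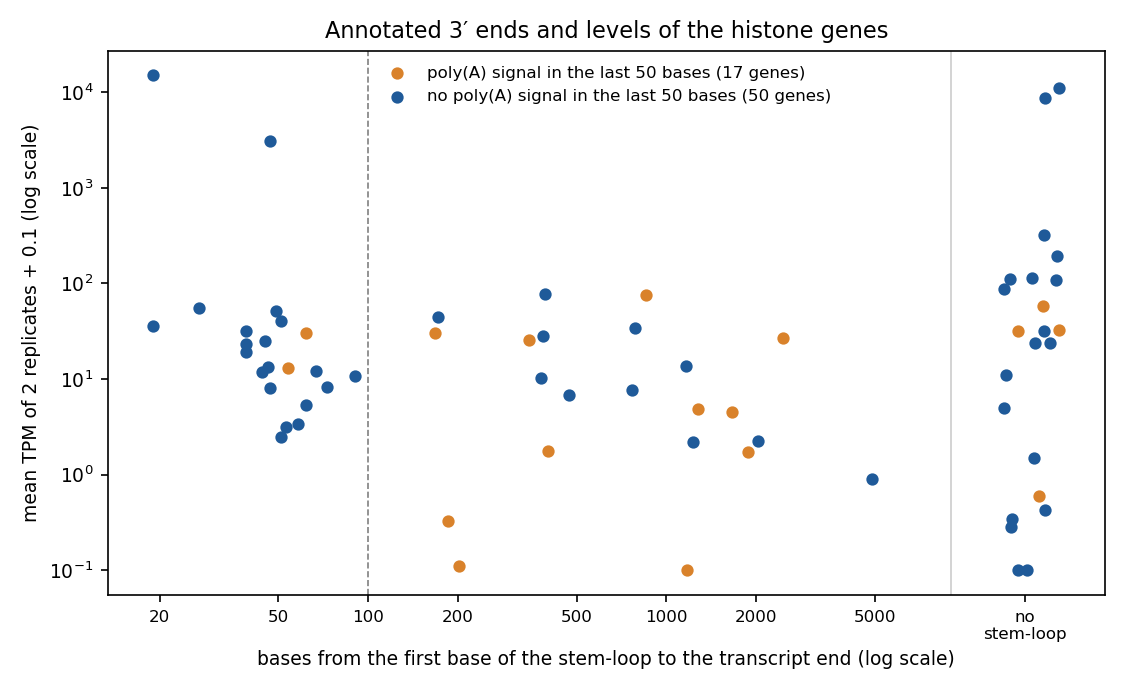
Mean TPM + 0.1 of the 2 replicates against the distance from the first base of the stem-loop to the transcript end, both on log axes, with genes without a stem-loop at the right and genes with a poly(A) signal in orange. The dashed line marks 100 bases, and the 4 highest genes, all without a poly(A) signal, stand at 19 and 47 bases and among the genes with no annotated stem-loop.

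In 12 cases an H2A and an H2B gene start back to back within 1000 bases of each other, an arrangement in which both share 1 stretch of promoter. In the M21 table the H2A gene was higher in both replicates in 8 of these pairs and the H2B gene in 3, and in the last, Hist1h2aa and Hist1h2ba, both had 0 counts. In M4 the H2A gene was higher in both in 8 pairs, the H2B gene in 1, and 2 differed between the replicates. In the table quantified from reads these numbers were 8, 2 and 2. The 8 pairs were not the same in each table. In M4 the pair of Hist1h2ad was among them, and that of Hist1h2ag was not. Quantified from reads, the pair of Hist1h2aa was among them, with Hist1h2aa at 1.44 TPM in both replicates and Hist1h2ba at 0. There the pair of Hist1h2ao was not, with Hist1h2ao at 22.1 and 0 TPM and Hist1h2bq at 17.5 and 10.8 TPM. Hist1h2ah was at 6576 and 15770 TPM and its partner Hist1h2bk at 15.0 and 11.4 TPM. That is a ratio of 440 in replicate 1 and 1383 in replicate 2 in the M21 table, against 229 and 65.2 in M4. In the M21 table Hist1h2ap exceeded Hist1h2br by ratios of 1159 and 167, and Hist1h2ao exceeded Hist1h2bq by 213 and 44.3. In these 2 pairs the split among identical copies is uncertain on both sides, and in Hist1h2ah, with 8.80% of its stretches unique, on the H2A side.

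In the other direction, Hist1h2ac was at 2.36 and 1.95 TPM and Hist1h2bc at 34.2 and 13.3 TPM, ratios of 0.0690 and 0.146. Hist1h2ae was below Hist1h2bg, at ratios of 0.428 and 0.846, but in M4 the ratios were 0.670 and 1.41. Hist1h2ad was below Hist1h2bf in M21, whereas in M4 it was above it by ratios of 159 and 653. Between these extremes in the M21 table, Hist1h2ag exceeded Hist1h2bj by 2.42 in replicate 1 and 1.06 in replicate 2, and in M4 the ratios were 1.17 and 0.444. Quantified from reads, the ratios were much larger, at 56.0 and 5.86, with Hist1h2bj at only 0.281 and 0.780 TPM.

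**Figure D4:**
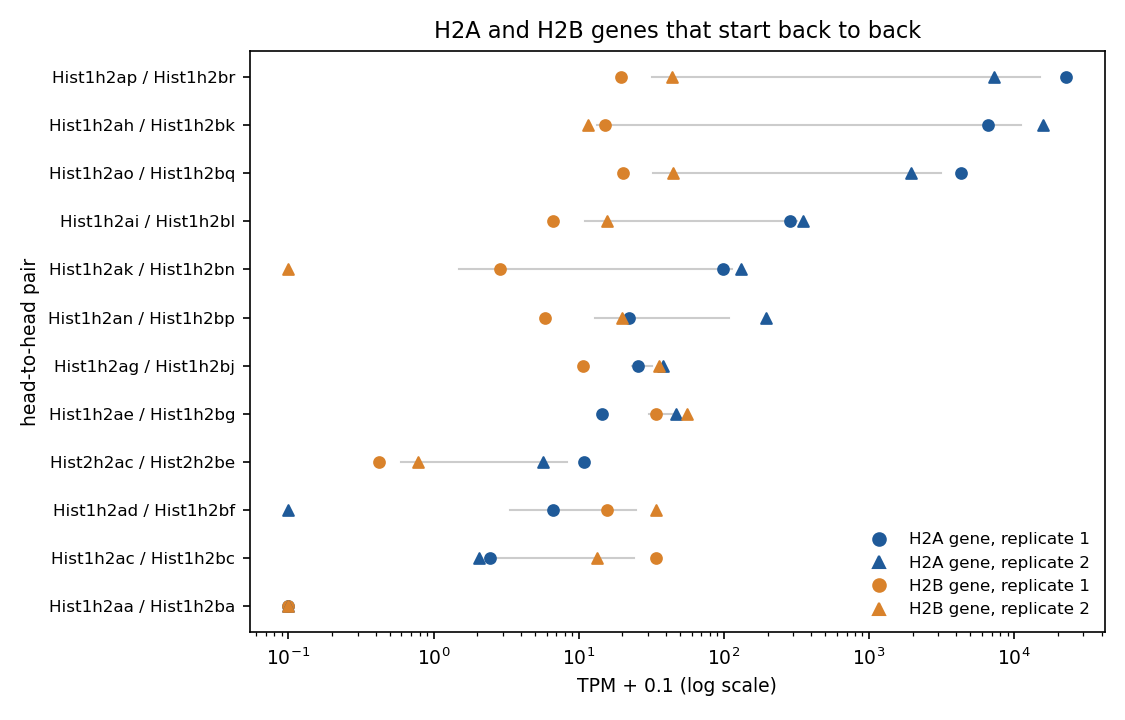
TPM + 0.1 on a log axis for the 12 back-to-back pairs, with the H2A gene in blue, the H2B gene in orange, circles for replicate 1, triangles for replicate 2 and a grey line joining the replicate means. In 8 pairs each blue symbol lies to the right of the orange one of the same replicate.

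The promoter windows of 1 such pair and of the highest gene are given here, because the partners share their sequence but not their level. They run from 250 bases before to 50 after the start, from RefSeq on GRCm38.p6, and capitals mark CCAAT, ATTTGCAT and TATAAA on either strand.
Hist1h2ah, chr13:22035594-22035893, minus strand: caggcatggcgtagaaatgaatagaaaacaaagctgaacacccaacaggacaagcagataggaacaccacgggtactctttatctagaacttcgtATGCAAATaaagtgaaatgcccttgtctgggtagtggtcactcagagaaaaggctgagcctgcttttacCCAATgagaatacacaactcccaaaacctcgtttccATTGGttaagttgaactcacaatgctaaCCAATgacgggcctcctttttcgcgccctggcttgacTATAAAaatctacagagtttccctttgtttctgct
Hist1h2bk, chr13:22035571-22035870, plus strand: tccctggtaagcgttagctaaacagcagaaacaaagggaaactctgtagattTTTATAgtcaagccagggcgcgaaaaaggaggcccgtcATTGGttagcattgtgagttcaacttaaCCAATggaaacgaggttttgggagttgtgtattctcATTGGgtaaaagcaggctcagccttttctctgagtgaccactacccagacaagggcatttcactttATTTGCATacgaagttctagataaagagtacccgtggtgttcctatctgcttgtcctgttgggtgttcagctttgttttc
Hist1h2ap, chr13:21833426-21833725, minus strand: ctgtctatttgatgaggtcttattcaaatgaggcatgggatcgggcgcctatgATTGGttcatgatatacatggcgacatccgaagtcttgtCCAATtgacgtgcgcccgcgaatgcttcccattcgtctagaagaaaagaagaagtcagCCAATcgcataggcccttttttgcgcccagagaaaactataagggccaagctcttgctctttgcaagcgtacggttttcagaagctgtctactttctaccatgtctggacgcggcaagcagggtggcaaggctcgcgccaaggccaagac
The windows of Hist1h2ah and Hist1h2bk are the same 277 bases read on opposite strands, apart from their ends. Each holds CCAAT 3 times, counting both strands, and each of the other motifs 1 time. The window of Hist1h2ap holds CCAAT 3 times and neither of the others, and shares an unbroken stretch of 200 bases with that of Hist1h2ao. Among the 62 genes with a RefSeq window, CCAAT or ATTGG was in 53, against 41.1% of 27025 genes. ATTTGCAT, the octamer known from H2B promoters, or its reverse ATGCAAAT was in 14, against 1.97%, of which 7 were H2B and 7 H2A genes. TATAAA or TTTATA was in 35, against 15.7%. Of the 12 H4 windows, 3 held CCAAT or ATTGG, while all windows of H1, H2A, H2B and H3 did. These matches are letters in a window and no measure of binding.

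Between the libraries, the medians of histone genes and of all protein-coding genes shifted in opposite ways in TPM of the M21 table, but not in the table quantified from reads. In the authors' posterior mean TPM the median over all protein-coding genes was only -0.025. Over the 58 histone genes that reached 1 TPM in a library, the median log2 ratio of TPM + 1, replicate 2 over replicate 1, was 0.69, against -0.31 over 8488 protein-coding genes. In 25 of the 58 the ratio was over 2-fold upward, against 14.5% of protein-coding genes, and in 10 over 2-fold downward, against 29.4%. With edgeR TMM or DESeq2 size factors on the rounded expected counts, 27 were upward and 6 downward by this measure, and the median over all protein-coding genes was -0.24 and -0.17. Of the 8488 protein-coding genes, 1247 were upward and 2353 downward with TMM, and 1380 and 2209 with DESeq2 size factors. In CPM, with no correction for length, 17 histone genes were upward and 9 downward. The median over all protein-coding genes was then -0.56, with 742 of the 8488 upward and 3088 downward. The authors' intervals for the 2 libraries did not overlap in 47 of the 58 genes, a share near the 77% found over the 8488 protein-coding genes. The class medians were 1.08 for H2B (14 genes), 1.07 for H4 (13 genes), 0.06 for H3 (11 genes), 0.06 for H2A (16 genes) and -0.32 for H1 (4 genes). Whether the classes differ could not be tested with 1 library a side.

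The 5 largest shifts upward in the M21 table were those of Hist4h4, Hist1h2an, Hist1h3h, Hist1h4m and Hist1h4k, with log2 ratios of 4.38, 3.08, 2.91, 2.84 and 2.77. Quantified from reads, Hist4h4 was at 1.39 and 7.27 TPM, Hist1h3h at 24.1 and 58.7 TPM and Hist1h4m at 0.548 and 5.49 TPM. Hist1h4k was nearly level there, at 20.1 and 20.7 TPM, and Hist1h2an was lower in replicate 2, at 36.4 and 22.3 TPM. The 5 largest shifts downward in the M21 table were those of Hist1h4n, Hist3h2a, Hist1h2ad, Hist2h2aa1 and Hist1h2bn, all listed at 0 in replicate 2, so no fold is given. Of these 5, Hist3h2a shares the fewest stretches with other genes, with 67.9% unique, against 10.3% to 31.7% in the other 4. It had 1291 expected counts in replicate 1. Quantified from reads, Hist3h2a was at 6.57 and 1.33 TPM and Hist1h4n at 9.45 and 1.06 TPM, so neither was at 0 in replicate 2 there. Hist1h2ad, Hist2h2aa1 and Hist1h2bn were at 0 in replicate 2 there too. Across the set the direction was the opposite in the table quantified from reads, with a median of -0.89 over the histone genes. There 3 of 55 genes were over 2-fold upward and 23 downward. Over all protein-coding genes in that table the median was -1.36, with 77 of 8298 over 2-fold upward and 5557 downward. The median of the histone genes thus lay above that of all genes in both tables, by 1.00 in the M21 table and by 0.47 in the table quantified from reads.

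Of RNAs known to carry no poly(A) tail, the 3 examined were also higher in replicate 2 in the M21 table. Rmrp was at 1.21 TPM in replicate 1 and at 93.1 TPM in replicate 2, Rpph1 at 84.5 and 432 TPM, and Rn7sk at 514 and 556 TPM. The erythroid markers were lower in replicate 2 in 5 of 6 cases, with Hbb-bs at 97719 and 34786 TPM, and depth was 5.06 times lower there. The part of these differences in the shift of the histone genes was not tested.

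**Figure D5:**
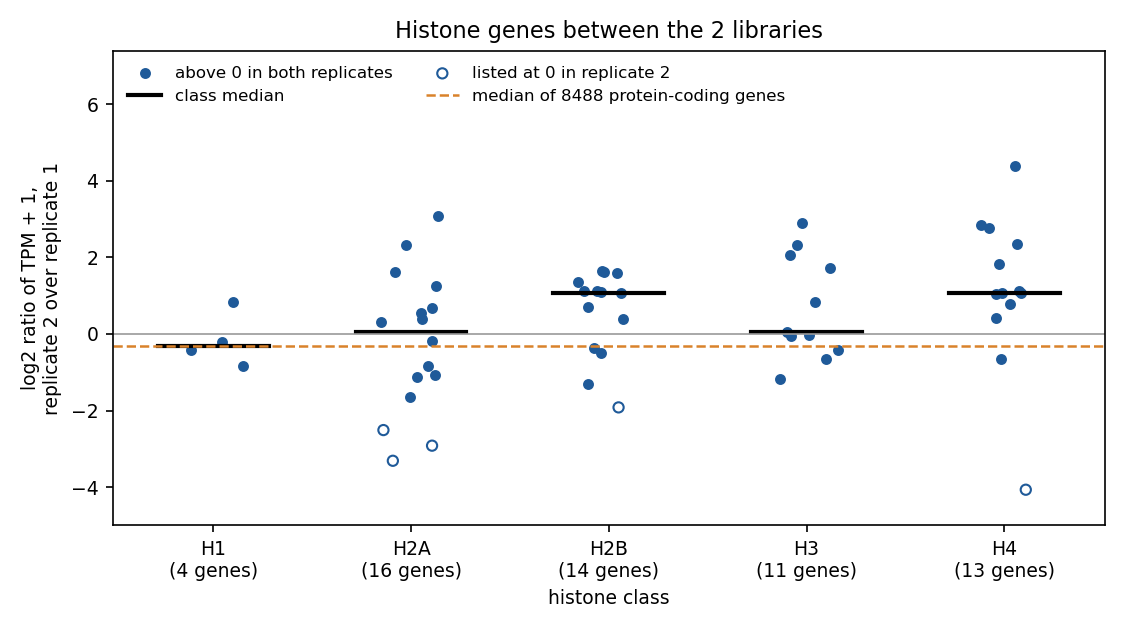
log2 ratio of TPM + 1, replicate 2 over replicate 1, for the 58 histone genes that reached 1 TPM in a library, by class, with black bars for class medians, open circles for genes listed at 0 in replicate 2 and a dashed line at -0.31, the median of 8488 protein-coding genes. The medians of H2B and H4 lie near 1.1 and that of H1 near the dashed line.

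Most genes of a list for histone mRNAs were detected, but the list also holds general factors of mRNA such as the poly(A) binding proteins. Of 30 genes listed for histone gene activation, 3′ processing, export and decay, 25 were detected, and of 29 that reached 1 TPM in a library, 2 were over 2-fold higher and 14 over 2-fold lower in replicate 2, a median log2 ratio of -0.84. Over all protein-coding genes 33.1% were detected, 14.5% were over 2-fold higher and 29.4% over 2-fold lower, and the median was -0.31. The highest were Pabpc1, the cytoplasmic poly(A) binding protein, at 2877 and 7297 TPM, Snrpb, an Sm protein, at 307 and 458 TPM, Srrt, a partner of the cap-binding complex, at 323 and 359 TPM, and Pabpn1, the nuclear poly(A) binding protein, at 176 and 251 TPM. The 5 not detected were Npat, the coactivator of histone genes, at 0.72 and 1.13 TPM, Casp8ap2 at 3.86 and 0.95 TPM, Zfp473, a zinc finger protein of the U7 particle, at 0.17 and 0.11 TPM, Snrpd3 at 9.47 and 0.86 TPM, and Snrpg at 5.63 and 0 TPM.

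Slbp, which encodes the protein that holds the stem-loop, and Lsm11, a subunit of the U7 particle that guides the cut after it, are named for their roles after their values were seen. Slbp was at 127 TPM in replicate 1 and at 31.3 TPM in replicate 2. Lsm11 was at 10.6 TPM in replicate 1 and at 108 TPM in replicate 2. Slbp and Lsm11 thus differed between the libraries in opposite directions. Lsm11 was among the 2 listed genes over 2-fold higher in replicate 2, so it does not give a direction for the U7 particle. The listed gene Lsm10 went the other way, with 4.48 TPM in replicate 2 against 10.45 TPM in replicate 1. Zfp473, Snrpd3, Snrpg, Snrpe and Snrpf were also lower in replicate 2, while Snrpb was higher.

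Of 18 genes for the chaperones that carry histones and place them on DNA, 17 were detected, against 33.1% of protein-coding genes. In replicate 2, 13 were over 2-fold lower, against 29.4%, and 2 over 2-fold higher, against 14.5%. Their median log2 ratio was -1.61, against 0.69 for the histone genes and -0.31 for all protein-coding genes. The highest were Asf1b, an H3-H4 chaperone, at 230 and 37.7 TPM, Nap1l1, an H2A-H2B chaperone, at 86.1 and 65.9 TPM, Chaf1a, a subunit of the CAF-1 complex that places H3-H4 behind replication forks, at 87.4 and 11.1 TPM, and Ssrp1, a subunit of FACT, at 25.5 and 66.1 TPM. Hat1, which acetylates new H4, was at 2.05 and 0.46 TPM and was not detected.

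Replacement histones, most of which are known to be made also outside S phase from polyadenylated mRNAs, stood in different proportion to each class. The histone genes of the set over replacement genes gave ratios of 11.4 and 13.6 for H2A and 0.113 and 0.681 for H3. The H2A replacement genes were H2afz, H2afx, H2afj, H2afv, H2afy and H2afy2, and those of H3 were H3f3a, H3f3b and Cenpa. H2afx, which shares stretches with the 4 highest genes, held 432 and 1955 of the 3255 and 2987 TPM of the H2A replacement genes. For H1, the replacement genes H1f0, H1fx, H1fnt and H1foo summed to 0.06 and 0.29 TPM, against 99.6 and 91.5 TPM for the genes of the set.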

How the data were processed

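The 2 libraries of the series formed 1 group (n = 2), and no sample was left out. Expected counts were deposited as estimated, partly fractional, fragment numbers with no scaling. TPM values were deposited by the authors already corrected for length and scaled, per the file headers. A percent for each transcript within its gene was also deposited. The deposited tables used the GENCODE releases M21 and M4 on mm10, and another table was quantified from reads. Aligner, quantifiers and use of strand were not given in the sources used here. Overlapping or antisense genes could therefore take each other's reads.

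Values come from the M21 gene table unless another is named, with gene names from the table quantified from reads. Members, lists and the rule for named genes were chosen with earlier results of these data known. The rule names the 4 highest and 2 lowest detected genes of each class, every gene at a mean of 100 TPM or more, genes at 1 TPM in 1 replicate only, the 5 largest shifts in each direction, multi-exon or poly(A)-signal genes at 10 TPM or more, and in the lists the 4 highest and every undetected gene. Ratios used log2(TPM + 1), with a pseudocount of 1. The counting of 2-fold differences was tested on simulated data. Sequences came from GENCODE M21 transcripts, compared in stretches of 31 bases, and from RefSeq promoters, which matched 62 of 67 genes. Transcripts were not extended beyond their annotated ends.

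Alternatives were thresholds of 0.5 and 5 TPM, 10 or more counts, posterior mean TPM, the M4 table, the table quantified from reads, expected counts without length correction, TPM over nuclear protein-coding genes, pseudocounts of 0.1 and 5, no filter, a mean count of 50, CPM, edgeR TMM and DESeq2 size factors on rounded counts (used for scaling only), other motif windows and each replicate alone. The versions were R 4.3.3, edgeR 4.0.16, DESeq2 1.42.0, Biopython 1.88, scipy 1.17.1, pandas 2.3.3, numpy 2.4.6, matplotlib 3.10.9 and Python 3.11.15.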

Additional observations from a re-analysis of the deposited data

How the results depend on the processing

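No paired analysis was possible because there was only 1 group. The share of all TPM held by the histone genes was 4.01%, 1.59% in the table quantified from reads, 1.16% in expected counts without length correction and 0.195% without the 4 highest H2A genes, a setting chosen after seeing the data. The share of H2A in the set was 94.5% in expected counts. The median log2 ratio between replicates was 0.69, against -0.31 over all protein-coding genes. With no filter these medians were 0.39 and 0, and in posterior mean TPM 0.60 and -0.025. The median of the histone genes turned to -0.89 in the table quantified from reads, where 3 genes were over 2-fold upward and 23 downward, against 25 and 10. Over all protein-coding genes in that table the median was -1.36, with 77 of 8298 over 2-fold upward and 5557 downward. The cause of the turn was not tested. With a pseudocount of 5, 22 genes in place of 35 were over 2-fold apart, since the larger pseudocount shrinks the ratios of low genes. The stem-loop was found in 44 genes in whole transcripts. With each replicate alone, 52 to 58 genes were detected, the share of TPM was 3.78% to 4.24%, that of H2A 95.8% to 98.1% and that of Hist1h2ap 17.3% to 60.1%. Replicate 2 has the lower depth, and values under about 1 TPM there rest on few counts.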
